A study of Mus musculus with 6 samples.

Results

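Gene expression of lineage-negative (Lin-) bone marrow progenitors was compared between mice without Diap1 (Diap1 -/-, called KO here) and wild-type mice (WT). All gene loci of the deposited tables whose estimate had the status OK in both libraries were taken, 23448 of the 23746 loci in the tables. Both groups were C57BL/6 mice of 12 weeks, and each library came from the pooled marrow of 4 mice. The same pools also gave a Gr1+Mac1+ fraction, cells that carry the surface markers Gr1 and Mac1 of granulocytes and monocytes, which was removed before the progenitors were prepared. Mice of a further genotype, Diap1 +/- (Het), gave pools that were prepared in the same way. Its libraries and the Gr1+Mac1+ libraries are given beside the KO and WT values where they help to place a gene. The sources used here state neither the deleted part of the gene nor the sex of the mice, and they name no cell type to which the deletion was restricted. There was 1 library in each group, so sizes of differences are given, no test between genotypes was possible, and the spread between mice is not known.

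Diap1 is the symbol used in the files for the gene of the formin mDia1, now named Diaph1. Formins bind the growing end of actin filaments and build long unbranched filaments, and mDia1 does so when the small GTPase RhoA releases its autoinhibition. Drawing actin monomers into filaments frees the MRTF coactivators, which enter the nucleus and switch on cytoskeletal genes together with the transcription factor SRF. In bone marrow, actin assembly takes part in the adhesion and migration of progenitors and white cells, in the division and enucleation of red cell precursors and in platelet formation by megakaryocytes.

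Levels are given as FPKM, fragment numbers divided by transcript length and by the mapped total of the library, so they are scaled to length and can be compared between genes. Differences are log2 ratios of (FPKM + 1), KO over WT, which understate the change of genes with low values. The deposited 95% interval of a value covers counting error and the sharing of fragments between isoforms, not the spread between mice, and so does the standard error of a log2 ratio that was derived from it, called counting SE here. A locus was counted as higher or lower when the ratio was at least 2-fold, or in a wider set at least 1.5-fold, the larger FPKM was at least 5 and the deposited intervals did not overlap. The interval widths imply about 10390000 fragments in the WT and 9420000 in the KO Lin- library. Since RNA of whole fractions was sequenced, fewer cells of a type and less RNA per cell cannot be told apart.

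The defining markers of progenitors were present in both libraries and, summed over Kit, Cd34, Gata2, Myb, Flt3 and Meis1, stood at 245 FPKM in WT and 287 in KO. Neutrophil markers summed to 28.5 and 37.5, against 77519 in the WT Gr1+Mac1+ library, and markers of B, T and NK cells to at most 18.8. Red cell precursors and megakaryocytes were part of both Lin- libraries, with marker sums of 1054 and 1816 and of 285 and 188. The Het Lin- library stood apart from both, with 4444 FPKM of neutrophil markers, so Het values of genes of mature myeloid cells are not read as a step between WT and KO.

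Most loci had nearly the same level in KO and WT progenitors. Of 10833 loci with a mean of at least 1 FPKM, 5490 had a ratio above 0 and 5343 one below, with a median log2 ratio of 0.0032, and 95% of the ratios lay between -0.40 and 0.47. The quartiles of the ratios were -0.11 and 0.11. A level of at least 5 FPKM in either library was reached by 8262 loci. By the 2-fold rule 15 of the 8262 loci (0.182%) were higher in KO and 4 (0.0484%) were lower. By the 1.5-fold rule 49 (0.593%) were higher and 36 (0.436%) lower. These percentages are the background for the counts of each gene group below, but the sets are not alike. Group members are those with a mean of at least 1 FPKM, and members below 5 FPKM in both libraries could not pass. All 40 DNA replication genes could pass. Of other groups, 6 of 16 mature neutrophil genes, 4 of 12 granulocyte and monocyte regulators and 8 of 17 growth factor receptors could. The same held for 3 of 10 B lineage genes, 6 of 24 T and NK cell genes and 17 of 47 histone loci.

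**Figure D1:**
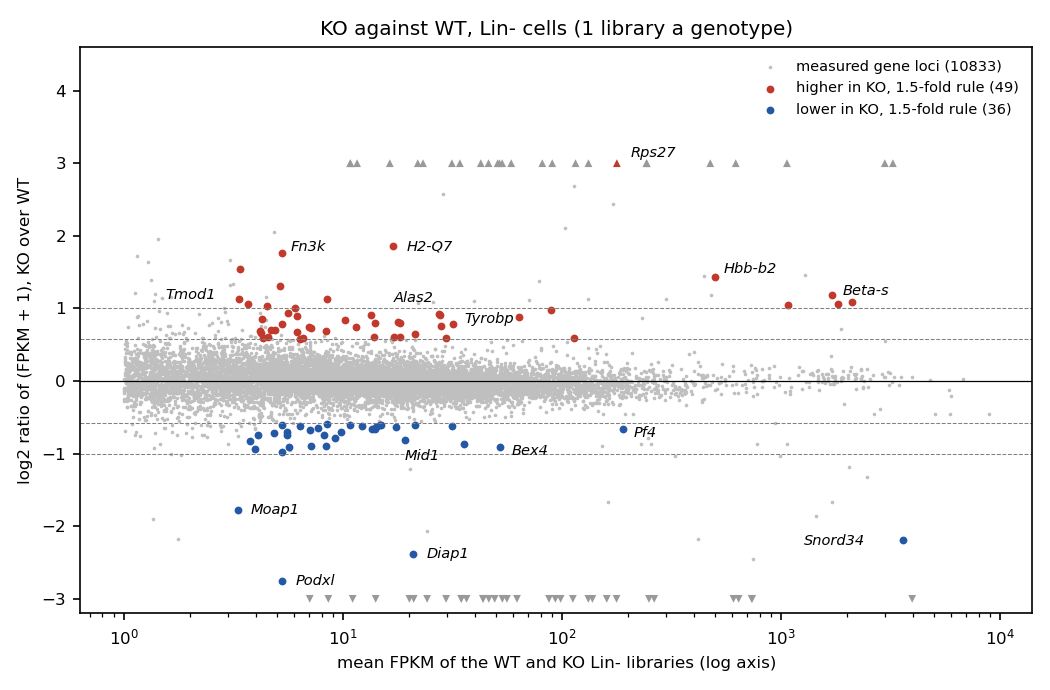
Each point is a gene locus with a mean of at least 1 FPKM, plotted by its mean FPKM in the WT and KO Lin- libraries (log axis) and its log2 ratio of (FPKM + 1), KO over WT, with loci past the 1.5-fold rule in colour; 59 loci with ratios past 3 in size are drawn as triangles at 3, and 57 of these were listed at 0 in 1 library. The cloud is centred near 0, Podxl and Diap1 lie lowest among the coloured points, and the globin loci are among the coloured points at the highest levels.

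The 15 loci included several whose value cannot be separated from that of a neighbour. Of the 15, 7 overlapped another locus and 8 were left without them, and 2 of the 4 lower loci were left. Without genes that have near-identical copies, 5 of the 15 were left. Of the same 15, 8 had at least 4 times the WT Lin- value of FPKM + 1 in WT Gr1+Mac1+ cells, and 7 were left without such genes. In the wider set of 49 higher loci, 25 were left without them. Both ratios have the WT Lin- value as their reference, so a low value in that library favours passing both. Hbb-b1 (log2 ratio 1.04), Lyz1 (1.04) and S100a6 (1.01) lay just past the 2-fold limit. Alas2 (0.92), Eif2s3y (0.92) and, among lower loci, Bex1 (-0.93) lay just short of it.

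The targeted gene was checked first. Diap1 (mm10, chr18:37844825-37935411, minus strand) had 36.0 FPKM in WT Lin- cells, against 24.2 in Het and 6.07 in KO. The 3 deposited intervals did not overlap, and the KO value was 16.9% of the WT value (log2 ratio -2.39, counting SE 0.08). Because the deleted part is not stated, the fragments that remained in KO cannot be assigned to exons inside or outside it. Around the gene, 30 measured loci within 2 Mb had a median log2 ratio of -0.03 with 14 above 0, and 1 of them passed the 1.5-fold rule, 1700086O06Rik (5.14 FPKM in WT, 9.14 in KO). Below the level of that rule, these neighbours include Cd14, with a log2 ratio of 1.39 and intervals that did not overlap, and Hbegf, a growth factor of the EGF family, at 1.66 and 0.594 FPKM (-0.74).

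Among the other formins no member passed either rule. Of these 7 measured formins, 4 had a ratio above 0 and 3 below, and the median was 0.04. Diap3, which encodes the related formin mDia2, was at 19.7 FPKM in WT and 20.3 in KO. Daam1, a formin of Wnt signalling to the cytoskeleton, was at 20.2 and 18.4. Fmnl1, a formin of white blood cells, was at 15.3 and 20.8 (log2 ratio 0.42), and Fhdc1, a formin that also acts on microtubules, at 1.604 and 3.76 (0.87), with a level below the 5 FPKM that the rule asks for. With Diap1 included the formins summed to 110 FPKM in WT and 86.2 in KO.

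Podxl had the lowest ratio of all loci past the rules, lower than that of Diap1 itself. It encodes podocalyxin, a sialomucin of the CD34 family found on early blood progenitors, on platelets and on endothelium, which is linked to actin through ezrin-type adaptor proteins. Podxl (chr6:31519493-31563937, minus strand) had 9.96 FPKM in WT Lin- cells, against 0.731 in Het and 0.629 in KO. The WT interval ran from 9.21 to 10.7 and the KO interval from 0.430 to 0.828, and the implied fragments were 695 and 40.0. Only the WT library was high, while the Het and KO intervals overlapped. KO stood at 6.32% of WT (log2 ratio -2.75, counting SE 0.10). In the Gr1+Mac1+ fraction the gene was near 0 in all 3 genotypes, at 0.266 FPKM in WT, with Het at 0.1002 and KO at 0.0343. Since both mutant libraries were compared with 1 WT library, the low values in Het and KO are not independent of each other's reference.

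The proteins that work beside podocalyxin had no such difference. Of 9 measured sialomucins and ERM linkers, 6 had a ratio above 0, the median was 0.02 and Podxl alone passed the rule. Cd34, its relative, was at 22.2 FPKM in WT and 24.98 in KO. Spn (CD43), another large sialomucin of blood cells, was at 136 and 132. The membrane-to-actin linkers Msn and Rdx were at 71.3 and 72.4 and at 63.6 and 57.6. Integrins and other adhesion molecules had a median of 0.11 over 15 genes, with 0 past the 1.5-fold rule.

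**Figure D2:**
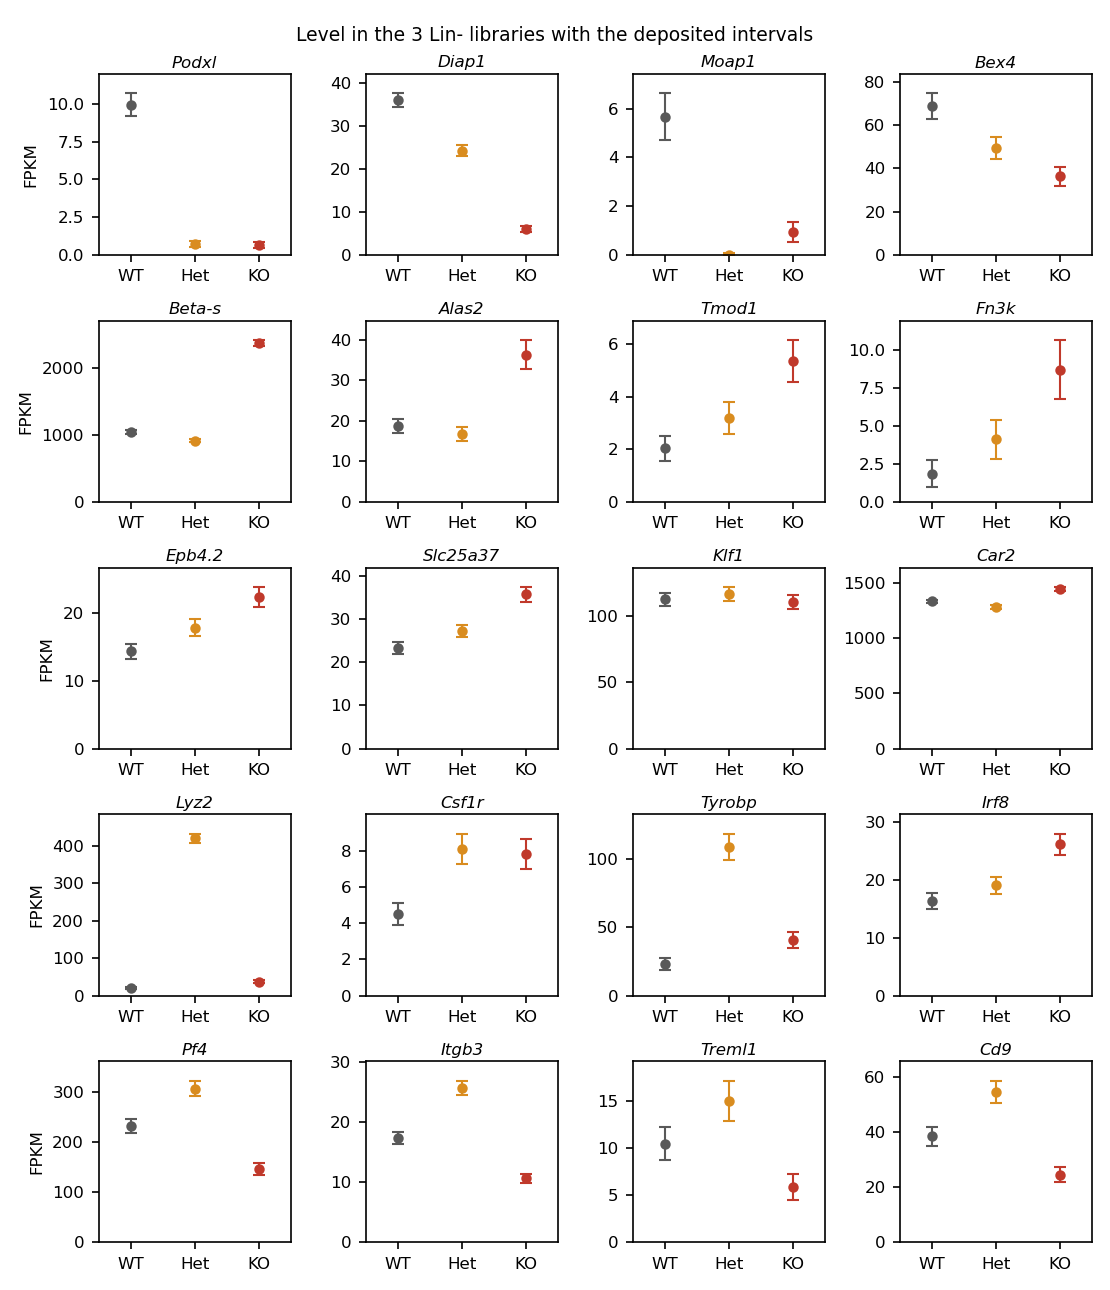
FPKM of 20 genes in the WT, Het and KO Lin- libraries (1 library each, linear axes from 0 with a scale of their own for each gene), with the deposited 95% intervals as bars. Podxl is low in both Het and KO, Diap1 falls from WT over Het to KO, and the Beta-s and Alas2 values of KO lie above those of both WT and Het.

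Genes of the actin pathway itself stayed close to their WT level. Of 18 measured genes of RhoA signalling, ROCK kinases and nonmuscle myosin II, 16 had a ratio above 0, but the median was 0.08 and 0 passed the 1.5-fold rule. The Arp2/3 complex, which builds branched filaments, and its activators had a median of 0.06 over 20 genes, again with 0 past the rule. Actin, monomer-binding and capping proteins had a median of -0.01, with 11 of 23 above 0 and 1 past the rule, Tmod1, which is described with the red cell genes. Actg1, cytoplasmic gamma-actin, was at 475 FPKM in WT and 396 in KO (log2 ratio -0.26), and Actb, cytoplasmic beta-actin, at 1095 and 988 (-0.15). The monomer-binding protein Pfn1, which feeds actin to formins, was at 827 and 823, and the severing protein Cfl1 at 776 and 737.

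Targets of SRF and the MRTF coactivators lay slightly lower without any member past the rule. Of 19 measured members 13 had a ratio below 0, with a median of -0.07, and their summed FPKM in KO was 90.6% of that in WT. The deposited intervals lay apart in 6 members that were lower and in 1 that was higher, beside 7.43% and 6.22% of all measured loci. Actn1, which crosslinks actin filaments, had the lowest ratio, from 4.37 FPKM in WT to 2.498 in KO (-0.62). The list shares Actb and Actg1 with the actin list. Tubulins, septins and microtubule-end proteins had a median of -0.05 over 23 genes, with 0 past the rule.

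Globins were the most abundant genes among those past the rules as higher in KO progenitors. All 9 measured globin loci had a ratio above 0, with a median of 1.04, and 7 passed the 1.5-fold rule. They summed to 4657 FPKM in WT, against 4186 in Het and 10119 in KO. The beta-globin locus Beta-s (chr7:103826523-103827928, minus strand) had 1041 FPKM in WT, against 914 in Het and 2377 in KO (log2 ratio 1.19, counting SE 0.02). Hbb-b1, the second adult beta-globin, was at 703, 693 and 1449 in WT, Het and KO, and Hbb-b2, which occupies the same stretch of the chromosome, at 268, 193 and 729. Summed over this shared stretch, WT had 971 and KO 2178. The pair of Hba-a1 loci, alpha-globin, were at 1353 and 1184 in WT and at 2876 and 2478 in KO, and each overlaps an Hba-a2 locus almost entirely. In Beta-s, Hbb-b1, Hbb-b2 and both Hba-a1 loci, KO was high and Het was at or below WT. In both Hba-a2 loci, at 59.7 and 44.3 FPKM in WT and 119 and 82.8 in KO, Het was above KO, at 163 and 119. The division of fragments among these copies is uncertain, but the sum over each overlapping pair was higher in KO.

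Sequences upstream of 4 genes are shown because 3 of them hold letters known from erythroid promoters and enhancers, the GATA motif, AGATAA, bound by Gata1, and the CACCC box, CCACACCC, bound by Klf1. Both strands were searched, and capitals mark the matches. Each sequence is the 250 bases before the start site in RefSeq on GRCm38.p6 (mm10), 5′ to 3′ on the strand of the gene. They lie at chr7:103827929-103828178 (minus) for Hbb-bs, the RefSeq name of the Beta-s locus, chr7:103813924-103814173 (minus) for Hbb-bt, that of the Hbb-b1 locus, chrX:150547167-150547416 (plus) for Alas2 and chr2:121036878-121037127 (minus) for Epb42, named Epb4.2 in the files.
Hbb-bs: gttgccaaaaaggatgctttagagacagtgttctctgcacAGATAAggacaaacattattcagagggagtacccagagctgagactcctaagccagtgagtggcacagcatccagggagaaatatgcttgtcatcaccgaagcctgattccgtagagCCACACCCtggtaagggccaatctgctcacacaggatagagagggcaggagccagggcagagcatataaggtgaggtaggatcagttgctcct
Hbb-bt: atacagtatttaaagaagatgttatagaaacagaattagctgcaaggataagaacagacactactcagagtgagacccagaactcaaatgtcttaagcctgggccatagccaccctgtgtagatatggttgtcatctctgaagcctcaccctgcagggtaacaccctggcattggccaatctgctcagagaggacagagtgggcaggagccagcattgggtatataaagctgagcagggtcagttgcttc
Alas2: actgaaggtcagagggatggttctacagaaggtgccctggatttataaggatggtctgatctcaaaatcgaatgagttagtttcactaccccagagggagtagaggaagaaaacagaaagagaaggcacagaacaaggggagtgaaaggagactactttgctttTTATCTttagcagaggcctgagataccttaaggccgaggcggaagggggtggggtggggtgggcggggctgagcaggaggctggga
Epb42: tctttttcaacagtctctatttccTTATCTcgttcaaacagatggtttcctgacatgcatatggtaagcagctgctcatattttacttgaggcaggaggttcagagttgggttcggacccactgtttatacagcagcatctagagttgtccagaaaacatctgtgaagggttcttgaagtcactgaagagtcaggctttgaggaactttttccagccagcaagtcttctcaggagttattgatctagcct
The Hbb-bs window holds both motifs, Alas2 and Epb42 hold the GATA motif in the reverse orientation, and Hbb-bt holds neither spelling. Hba-a1, Tmod1 and Ypel4, searched in the same way, hold none. The matches in a window do not overlap each other. Of 32851 mouse promoters of this length, 9.99% hold the GATA motif and 3.20% the CACCC box, and 1.47% hold a CArG box, the site of SRF. Of the symbols higher by the 1.5-fold rule, 36 of 47 had a promoter in the table, and 7 of these hold the GATA motif, 2 the CACCC box and 2 the CArG box. Of the 36 lower symbols 24 had one, with 1, 1 and 0. A symbol was counted when any of its promoters holds the motif, while the shares above are of single promoters. The 32851 promoters belong to 27025 genes, so these counts and shares are not a like comparison. A match is a run of letters and not a measured binding site.

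Beyond the globins, few red cell genes were higher by the rules, and they were of several roles. Alas2, the erythroid enzyme that starts heme synthesis, had 18.7 FPKM in WT, against 16.8 in Het and 36.4 in KO (0.92, counting SE 0.10). Its implied fragments, which also hold the uncertainty of sharing between isoforms, were 416 in WT and 407 in KO. The higher FPKM was thus not matched by more implied fragments, and the part of isoform sharing in it was not tested. Slc25a37 (mitoferrin), which brings iron into mitochondria for heme, was at 23.2, 27.2 and 35.7 (0.60). Both were highest in KO, with intervals that did not overlap those of WT. The other heme genes did not pass. Of 16 measured members 12 had a ratio above 0, with a median of 0.16. The intervals lay apart in 7 higher members (43.75%) and 1 lower one (6.25%), beside 6.22% and 7.43% of all measured loci.

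The red cell membrane and its skeleton held a pair of genes past the rule. Tmod1, tropomodulin, which caps the short actin filaments of the red cell skeleton, was at 2.04 FPKM in WT, 3.19 in Het and 5.36 in KO (1.06, counting SE 0.15). Its relative Tmod3, the form found more widely, was at 15.6 and 15.4 in WT and KO. Epb4.2, the band 4.2 protein that ties the anion exchanger to the skeleton, was at 14.3, 17.8 and 22.4 (0.61). For both genes the 3 genotypes stood in the order WT, Het, KO. Over the 25 measured members of the list, however, 13 had a ratio above 0 and 12 below, and the median was 0.01. The intervals lay apart in 8 higher members (32%) and 4 lower ones (16%), beside 6.22% and 7.43% of all measured loci. Aqp1, the water channel, was at 527 and 515.

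Enzymes and clearance factors of late red cell precursors had a median of 0.11, with 21 of 26 above 0 and 1 past the rule. That gene, Fn3k, encodes fructosamine-3-kinase, which removes sugar bound to proteins such as haemoglobin. Fn3k was at 1.85 FPKM in WT, 4.12 in Het and 8.68 in KO (1.77, counting SE 0.26), on 18.2 and 79.1 implied fragments. Its abundant list mates Car2 and Prdx2 were at 1336 and 1448 and at 859 and 912. Over the list, the intervals lay apart in 11 higher members (42.3%) and 0 lower ones, beside 6.22% and 7.43% of all measured loci. Ypel4, a small gene of the Yippee family, was in no list and went from 1.74 to 5.003 (1.13), and all 3 measured Ypel genes had a ratio above 0.

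The transcription factors that drive the red cell programme mostly had small ratios above 0. Klf1 was at 113, 117 and 110 FPKM in WT, Het and KO, and Gata1 at 122, 124.3 and 124.4. Sox6, which silences embryonic globins and promotes red cell maturation, was the only member of 16 past the rule, at 3.40, 4.15 and 5.71 (0.61). The list had 14 ratios above 0 and a median of 0.11. The intervals lay apart in 5 higher members (31.25%) and 0 lower ones, beside 6.22% and 7.43% of all measured loci. Epor, the erythropoietin receptor, was at 66.9 in WT and 62.2 in KO. Iron uptake and storage genes had a median of -0.01 over 16 members, with 0 past the rule.

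The red cell loci were also placed by how their level compared between the fractions. To do so without the WT and KO Lin- libraries, the 92 measured loci of the 5 red cell lists were ordered by the Het Gr1+Mac1+ over the Het Lin- level, a division chosen after the KO values had been seen. The 23 loci more than 4-fold lower in the Het Gr1+Mac1+ library had a median KO over WT log2 ratio of -0.01, with 11 above 0 and 0 past the 1.5-fold rule. The 20 loci 2- to 4-fold lower had a median of 0.15 with 0 past it. Another 20 loci, up to 2-fold lower, were at 0.15 with 2 past it, and the 18 up to 2-fold higher were at 0.20 with 4 past it. The 11 loci more than 2-fold higher in the Het Gr1+Mac1+ library, mostly globins, were at 0.92 with 7 past it. Thus all 13 red cell loci past the rule lay among those less than 2-fold lower in the Het Gr1+Mac1+ library. Without the globins, 20 loci at or above the Lin- level had a median of 0.12, 16 of them above 0, and 4 past the rule. That median is no higher than those of the loci up to 4-fold lower, so no order of medians remained there without globins. The points share libraries and depth, so this is a description.

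**Figure D3:**
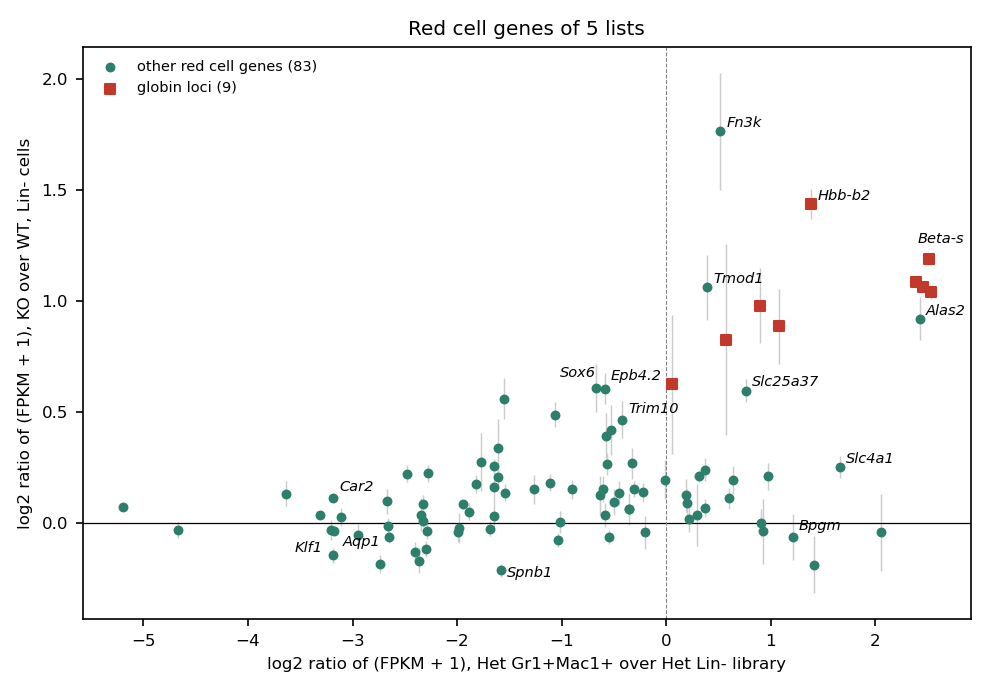
Each point is a measured red cell locus (9 globin loci and 83 others), plotted by the log2 ratio of its level in the Het Gr1+Mac1+ over the Het Lin- library and by its KO over WT log2 ratio in Lin- cells, with counting SE as bars. Loci on the left, low in the Gr1+Mac1+ fraction, lie around 0, and those with the largest KO over WT ratios are on the right.

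In the Gr1+Mac1+ fraction of the same pools most red cell genes were below their WT value. Of the 92 loci, 61 had a ratio above 0 in Lin- and below 0 in Gr1+Mac1+ cells, 22 were below 0 in both, 8 above 0 in both and 1 the reverse. In that fraction the KO over WT medians were -0.77 for globins (1 of 9 above 0), -0.53 for heme synthesis (0 of 16), -0.70 for the red cell membrane (2 of 25), -0.34 for late enzymes (3 of 26) and -0.11 for the transcription factors (3 of 16). Beta-s was at 7213 FPKM in WT and 5399 in KO, and Alas2 at 123.5 and 90.3. Fn3k was at 11.3 and 7.28, and Sox6 at 3.56 and 1.51. Each of these 4 genes thus had its higher value in KO in Lin- cells and in WT in Gr1+Mac1+ cells. Klf1 and Aqp1 were at -0.03 and -0.03 in Lin- cells and, in the Gr1+Mac1+ fraction, at -1.08 and -0.74. Whether red cell precursors were divided differently between the fractions of the KO and WT pools was not tested.

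The monocyte and macrophage list had the largest number of members past the 1.5-fold rule of all lists. Of 31 measured members 28 had a ratio above 0, the median was 0.48 and 10 passed the 1.5-fold rule, all of them higher. The intervals lay apart in 18 members that were higher and in 0 that were lower, beside 6.22% and 7.43% of all measured loci. Summed over the list, WT had 514 FPKM and KO 642. These genes were thus of modest level in both libraries.

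Among the receptors and signalling proteins, Csf1r, the receptor for the growth factor M-CSF, was at 4.50 FPKM in WT and 7.80 in KO (0.68, counting SE 0.10). Tyrobp (DAP12), the adaptor of many activating receptors of myeloid cells, was at 23.1 and 40.8 (0.79). Ms4a6c, a membrane protein of monocytes, was at 10.8 and 17.0 (0.60). These 3 KO intervals lay wholly above the WT intervals. Of proteins that kill or digest microbes, Mpeg1, a pore-forming protein of macrophages, was at 7.04 and 13.5 (0.85, counting SE 0.08), Lyz2, lysozyme, at 19.0 and 36.5 (0.91), and Ctss, the lysosomal protease cathepsin S, at 4.98 and 9.04 (0.75). Lyz1, the close copy of Lyz2, was at 2.60 and 6.38 (1.04). Pld4, a nuclease of endolysosomes, was at 2.98 and 5.41 (0.69).

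The S100 calcium-binding proteins of the list followed the same direction. S100a6 was at 3.71 FPKM in WT and 8.45 in KO (1.01) and S100a4 at 9.96 and 18.04 (0.80). All 8 measured S100 genes had a ratio above 0, and S100a8 and S100a9, the pair that fills neutrophils, stood at 21.1 and 26.6 and at 17.8 and 24.4 without reaching 1.5-fold. Ly6c2 and F13a1, defining monocyte markers, were at 22.2 and 30.5 and at 10.1 and 14.6, and did not pass. Cd14, the co-receptor for lipopolysaccharide, was at 0.284 FPKM in WT, with Het at 1.95 and KO at 2.37 (1.39), and so did not reach 5 FPKM in any of the 3 libraries. In the Gr1+Mac1+ fraction it was at 16.9, 71.4 and 132 in these genotypes (2.89). Outside this list, Alox5ap, needed for leukotriene synthesis, was at 20.7 and 35.7 (0.76).

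Regulators of the granulocyte and monocyte lineage had a median of 0.31, with 11 of 12 above 0. Irf8, the transcription factor that directs progenitors toward monocytes and dendritic cells, was the 1 member past the rule, at 16.4 FPKM in WT, 19.1 in Het and 26.2 in KO (0.64, counting SE 0.07). Sfpi1 (PU.1), the master regulator of myeloid fate, was at 7.55 and 10.4 (0.42), and Egr1 at 24.6 and 33.2 (0.42). Growth factor receptors had a median of 0.22 over 17 genes, with 13 above 0 and Csf1r alone past the rule.

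Few genes of granulocytes passed the rule. Secondary and tertiary granule and mature neutrophil proteins had a median of 0.31, with 11 of 16 above 0. Only 6 of the 16 reached the level of the rule. Of these 6, Hp, haptoglobin, alone passed, at 2.77 FPKM in WT and 5.80 in KO (0.85), beside 0.593% of the 8262 loci. The intervals lay apart in that gene and in 1 lower member, Cxcr2, a chemokine receptor of neutrophils, at 14.7 and 11.0 (-0.39). Each is 6.25% of the list, near the 6.22% higher and 7.43% lower of all measured loci. Primary granule proteins had a median of 0.11 over 18 genes, of which 16 reached the level of the rule and Lyz1 and Lyz2 passed it. Plac8 was at 182 and 238, and Calr, a chaperone, at 412 and 329. Genes of eosinophils, basophils and mast cells had a median of 0.26, with 10 of 13 above 0. Of these 13, 6 reached the level of the rule and 0 passed it. Mcpt8, a basophil protease, was at 13.2 and 19.97.

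These myeloid genes were abundant in the fraction that had been removed. Of the 49 loci higher in KO, 24 had at least 4 times the WT Lin- value of FPKM + 1 in WT Gr1+Mac1+ cells, as had 324 of the 8262 loci (3.92%). Both selections take the WT Lin- value as reference, so a locus low in that library enters both more easily. The 2 shares are therefore not a like comparison. In WT Gr1+Mac1+ cells Lyz2 stood at 6901 FPKM and Tyrobp at 1474, and in that fraction their KO over WT log2 ratios were 0.03 and 0.07. All 5 defining neutrophil markers and all 4 monocyte markers had a KO over WT ratio above 0 in Lin- cells. The WT and KO intervals overlapped for each of the 5 neutrophil markers and for none of the 4 monocyte markers. Of the neutrophil markers Ltf, Camp and Mmp8 were low, at 1.94, 2.65 and 0.789 FPKM in KO. The monocyte markers summed to 39.6 in WT and 56.9 in KO. The macrophage markers summed to 0.329 and 1.99, and C1qa had 0.827 FPKM in KO, where WT was listed at 0. Cells of the Gr1+Mac1+ kind that remained in the Lin- fraction would carry such markers, and their part in the result was not tested.

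**Figure D4:**
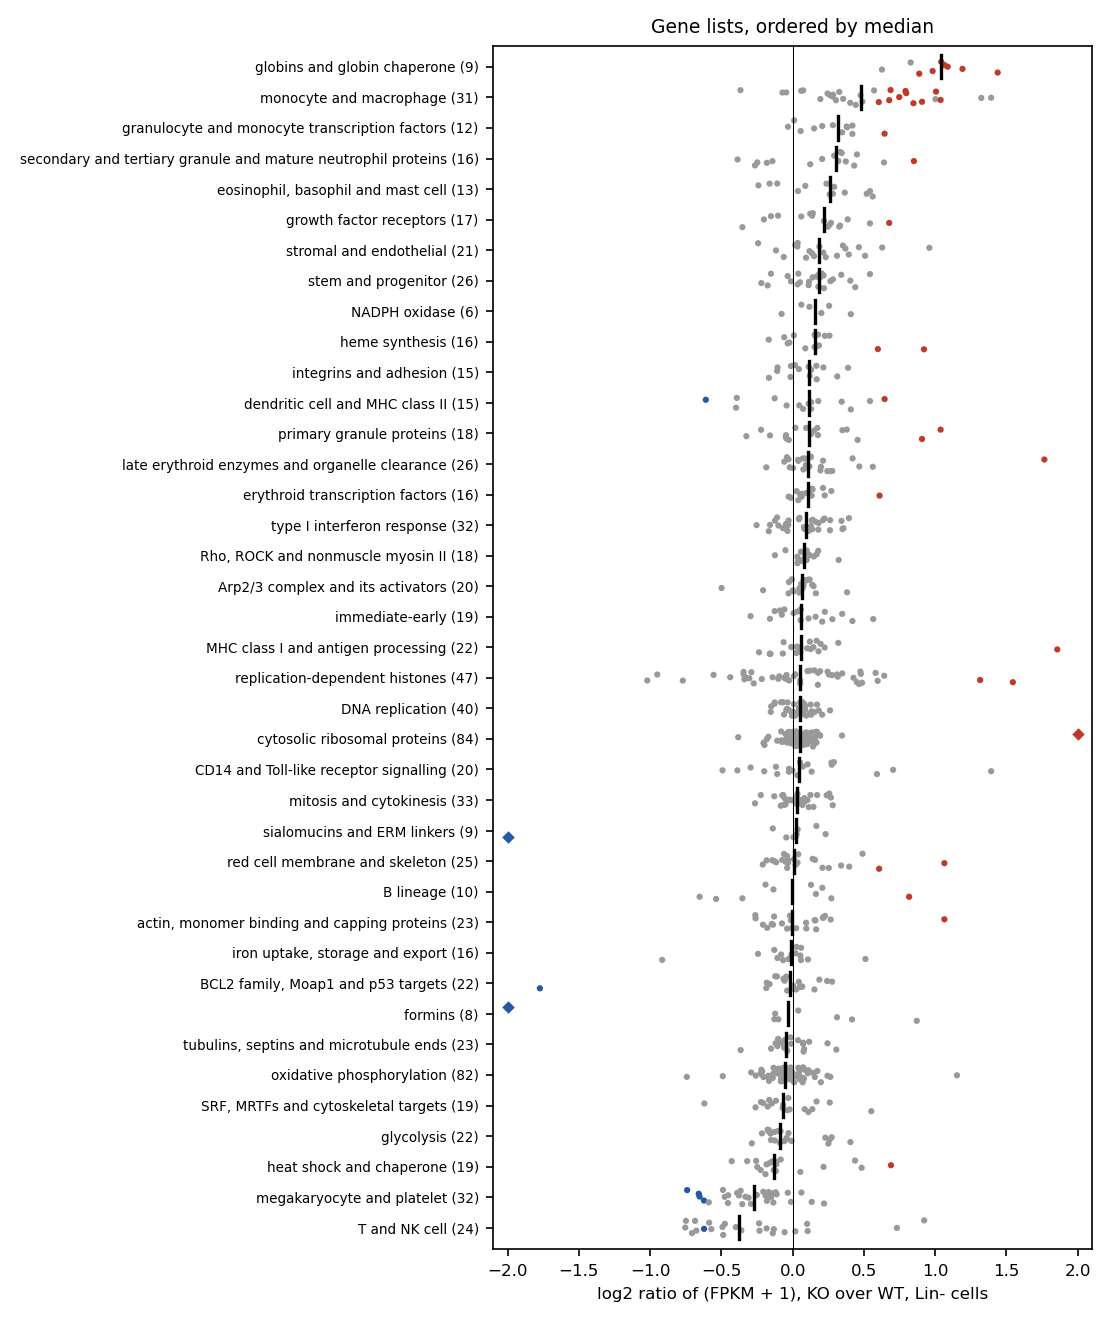
Log2 ratios of (FPKM + 1), KO over WT in Lin- cells, of the measured members of 39 gene lists, with a black bar at each list's median and members past the 1.5-fold rule in red (higher) or blue (lower); diamonds mark members past 2 in size. Globins lie farthest to the right and the monocyte list has the most red points, while the T and NK cell and megakaryocyte lists lie to the left.

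Megakaryocyte and platelet genes were lower in KO. Of 32 measured members 29 had a ratio below 0, the median was -0.27, and 4 passed the 1.5-fold rule, all of them lower. The intervals lay apart in 12 lower members (37.5%) and 0 higher ones, beside 7.43% and 6.22% of all measured loci. Pf4, platelet factor 4, a chemokine of platelet granules, had 232 FPKM in WT, against 308 in Het and 147 in KO (-0.66, counting SE 0.07). Itgb3, the beta subunit of the platelet fibrinogen receptor, was at 17.3, 25.7 and 10.6 (-0.65, counting SE 0.06). Cd9, a tetraspanin abundant on platelets, was at 38.4, 54.4 and 24.6 (-0.62), and Treml1, a receptor of platelet granules, at 10.5, 15.05 and 5.87 (-0.74). In all 4 genes KO was lowest and Het highest.

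The partner of Itgb3 and other platelet genes lay lower without passing. Itga2b, the alpha subunit of the same receptor, was at 43.1, 51.5 and 30.4 FPKM in WT, Het and KO (-0.49), and Vwf at 15.4 in WT and 11.0 in KO (-0.45). Gp9, a subunit of the receptor for von Willebrand factor, went the other way, at 9.44 and 11.2, with overlapping intervals. Summed over the list, KO held 79.5% of WT.

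Lymphoid genes were present at low levels and differed by gene. Genes of T and NK cells had a median of -0.38, with 19 of 24 below 0, and summed to 126 FPKM in WT and 102 in KO. Lat, an adaptor of T cell receptor signalling that megakaryocytes also express, was the 1 member past the rule, at 15.1 and 9.47 (-0.62). Cd3e, of the T cell receptor complex, was at 3.10 and 1.44 (-0.75) and Thy1 at 7.29 and 4.58 (-0.57). The small GTPases Gimap3 and Gimap4, which act in lymphocyte survival, were lower at 7.21 and 3.88 (-0.75) and at 5.12 and 2.44 (-0.83), whereas 3 of the 8 measured Gimap genes had a ratio above 0. Ltb, lymphotoxin beta, was at 6.27 and 3.44 (-0.71). The 4 T cell markers summed to 18.8 in WT and 11.7 in KO and were all lower in KO, and their part in these values was not tested.

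Of the B lineage, Dntt differed from the rest. It encodes terminal transferase, which adds nucleotides at immunoglobulin and T cell receptor joints in early lymphoid progenitors. Dntt was at 12.7 FPKM in WT, 11.7 in Het and 23.2 in KO (0.82, counting SE 0.13). Cd79a, a signalling chain of the B cell receptor, was low at 2.68 and 2.23, and the list of 10 had a median of -0.00 with 5 above 0. Igj, the joining chain of secreted antibodies, was lower, at 9.63, 7.37 and 4.72 (-0.89, counting SE 0.14), and also in the Gr1+Mac1+ fraction, at 46.2 in WT and 29.7 in KO (-0.62). Cd74, the invariant chain of MHC class II, was at 18.1, 36.9 and 11.5 (-0.61), while its list of dendritic cell and MHC class II genes had a median of 0.11 over 15 members. All 4 B cell markers had a ratio below 0 and summed to 6.47 in WT and 3.83 in KO, and their part in these values was not tested.

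Stem and progenitor genes lay a little higher as a group, without any member past the rule. Of 26 measured members 21 had a ratio above 0, and the median was 0.18. The intervals lay apart in 10 that were higher (38.5%) and in 0 that were lower, beside 6.22% and 7.43% of all measured loci. Flt3, the receptor of multipotent and lymphoid-primed progenitors, was at 7.85 FPKM in WT, 7.11 in Het and 11.9 in KO (0.54). Kit, the receptor for stem cell factor, was at 72.6, 66.4 and 84.7 (0.22), and the transcription factors Myb and Gata2 were at 117 and 135 and at 20.4 and 25.02 in WT and KO. All 6 progenitor markers had a ratio above 0.

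Genes of cell division had smaller medians. DNA replication genes had a median of 0.05 over 40 members and mitosis and cytokinesis genes one of 0.03 over 33, with 0 past the rule in both. The intervals lay apart in 8 higher (20%) and 3 lower (7.5%) replication genes and in 4 higher (12.1%) and 3 lower (9.09%) mitosis genes. Over all measured loci these shares were 6.22% and 7.43%. Cdc25b, a phosphatase that activates cyclin-dependent kinases, was higher as a single gene, at 8.37 FPKM in WT, 11.2 in Het and 14.7 in KO (0.74, counting SE 0.13). Hist3h2ba and Hist2h2bb, histone H2B genes, were at 1.24 and 5.52 and at 2.54 and 7.81, on 7 and 10 implied fragments in WT, and have near-identical copies. The 47 measured histone loci had a median of 0.05.

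Chaperone and glycolysis genes lay lower by small amounts. Of 19 heat shock and chaperone genes 14 had a ratio below 0, and the median was -0.13. The intervals lay apart in 11 lower members (57.9%) and 3 higher ones (15.8%), beside 7.43% and 6.22% of all measured loci. Hspa8, the constitutive HSP70, was at 2159.5 FPKM in WT and 1730.2 in KO (-0.32), and Hsph1, its exchange factor, at 67.7 and 50.1 (-0.43). Hspb1, a small heat shock protein that also binds actin, was the 1 member past the rule, as higher, at 6.20, 16.2 and 10.6 in WT, Het and KO (0.69). Hspa1l, an HSP70 relative outside the list, was also higher, at 13.4 in WT and 20.9 in KO (0.61). Of 22 glycolysis genes 17 were below 0, with a median of -0.09. Ldha, lactate dehydrogenase, was at 482 and 395 (-0.29). Oxidative phosphorylation genes had a median of -0.05 over 82 members and ribosomal protein genes one of 0.05 over 84, so both medians were within 0.1 of that of all loci. The intervals lay apart in 39 higher (46.4%) and 7 lower (8.33%) ribosomal protein genes. Among genes of oxidative phosphorylation they did so in 2 higher (2.44%) and 10 lower ones (12.2%). Ribosomal protein genes had a median counting SE of 0.02, so small differences are enough to part their intervals.

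Several lower genes belonged to no list. Bex4 and Bex1, small brain-expressed X-linked proteins, were at 68.8 FPKM in WT, 49.4 in Het and 36.2 in KO (-0.91, counting SE 0.11) and at 5.55, 3.69 and 2.44 (-0.93). Mid1, a microtubule-associated ubiquitin ligase also on the X chromosome, was at 24.7, 21.8 and 13.7 (-0.81, counting SE 0.07). Vps13c, a lipid transfer protein, was at 16.9, 10.9 and 10.3 (-0.67, counting SE 0.04). In these 4 genes KO was lowest, and in Vps13c it lay close to Het. Loxl2, a lysyl oxidase relative, was at 8.92 in WT and 5.19 in KO (-0.68), the carboxypeptidase Cpd at 7.09 and 3.99 (-0.70), and a locus named Nanog at 12.4 and 7.20 (-0.71).

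Of the 36 lower loci 4 were on the X chromosome (Bex1, Bex4, Trappc2 and Mid1), and of the 49 higher loci 1 was on X and 2 on Y. The median of 327 measured X-linked loci was 0.0037, with 167 above 0. Xist, the RNA of the inactive X chromosome, was at 54.2 FPKM in WT and 38.7 in KO (-0.47), and the Y-linked genes Eif2s3y and Ddx3y were at 9.05 and 17.96 (0.92) and at 3.25 and 5.42 (0.60). Both kinds of transcript were found in both pools, at different ratios. The part of the mix of sexes in the other differences cannot be told apart from that of the genotype.

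Higher genes outside the lists included Tac2, a tachykinin precursor, at 4.93 FPKM in WT, 10.1 in Het and 12.0 in KO (1.13, counting SE 0.27). Others were Dcxr, a dicarbonyl and xylulose reductase (4.01 and 8.36, 0.90), St8sia4, which makes polysialic acid (3.36 and 6.10, 0.70), and Tcn2, the carrier of vitamin B12 (3.48 and 6.30, 0.70). Stromal and endothelial genes had a median of 0.19, with 18 of 21 above 0 and 0 past the rule. Col1a1, a collagen of bone-forming cells, was at 139 in WT, 296 in Het and 180 in KO.

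Besides Snord34, which is given last, 3 of the loci past the 2-fold rule overlapped a locus whose value differed in the opposite direction. Rps27 had 4.63 FPKM in WT and 352 in KO, but the overlapping Gm9846 was at 3116 and 2938, and together they came to 3120 and 3290. H2-Q7, an MHC class I gene, was at 6.77 and 27.1, with the overlapping H2-Q9 at 39.1 and 28.4 and sums of 45.9 and 55.5. Moap1, which binds the death factor BAX, had 5.68 FPKM in WT and 0.953 in KO (-1.77), with 0.000152 listed for Het. It lies wholly within Gm20604, which was at 3.53, 8.17 and 7.67, so that together they came to 9.21 in WT and 8.63 in KO. In these 3 cases the files do not show which of the overlapping loci differed, and the ratio of the sums was nearer to 1 than that of the single values. Gm9846 and H2-Q9 did not have the status OK in both libraries, so the sums that hold them are less certain. Snord34, a small RNA inside Rpl13a, was lower on 15 and 3 implied fragments, with Rpl13a at 1719 and 1802 FPKM.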

How the data were processed

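RNA-seq values of 6 libraries were deposited as FPKM by the authors. An FPKM, its 2 bounds and a status are given for each locus, per the file headers. TopHat2 2.0.7, Cufflinks 2.0.2 and mm10 come from the submitters' processing notes, and what each was used for is not given in the sources used here. Each value is relative to the library total, so a few abundant genes can lower all others. No fragment counts were used. Each bound lies 2 SD from the value, which gave the implied fragments and counting SEs; they also hold the uncertainty of sharing fragments between isoforms, so they are not read numbers. Locus starts were raised by 1 to be 1-based.

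WT and KO Lin- libraries were compared by size with a pseudocount of 1. Lists are described by the median over members with mean FPKM of at least 1 and at least 5 members. The size rule and the SE were tried on simulated data that held counting error alone, the SE with almost no pseudocount. Isoform sharing, overlapping loci and the spread between mice were not simulated, so the trial says nothing about them. The comparison, the 42 gene lists and the rules were chosen with earlier results of these data known. Named genes are Diap1 and Cd14, the genes past the 2-fold rule, the next 15 in each direction past the 1.5-fold rule, up to 4 members of each list and the cell type markers. Symbols held by more than 1 locus and Gm, Rik and small RNA symbols are counted only. Hba-a1, Hba-a2, Snord34, Gm20604, Gm9846, H2-Q9, 1700086O06Rik, Tmod3, Ypel4, Actn1, Fhdc1, Hbegf, Hspa1l, Rpl13a, Vwf and Hsph1, where the rule leaves them out, were named after their values were seen. Promoters are from RefSeq (GRCm38.p6), matched by symbol. Alternatives were pseudocounts of 0.1 and 5, other level limits, a 3-fold limit, no interval criterion, rescaling by the median ratio and leaving out kinds of loci. The tools were matplotlib 3.10.9, pandas 2.3.3, numpy 2.4.6 and Python 3.11.15.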

Additional observations from a re-analysis of the deposited data

Results flagged for a closer look

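Some loci passed the 1.5-fold rule in opposite directions in the 2 fractions, KO against WT. The log2 ratio of Epb4.2 was 0.61 in the Lin- fraction and -0.67 in the Gr1+Mac1+ fraction, and that of Hbb-b1 was 1.04 and -0.77. The pair of Hba-a2 loci had 0.98 and 0.89 in Lin- cells and -1.03 and -0.99 in Gr1+Mac1+ cells. H2-Q7 had 1.86 and -0.66. With 1 library in each group, none of these differences between the fractions was tested. The globin loci and H2-Q7 overlap near-identical copies, and Epb4.2 does not.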

How the results depend on the processing

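Counts of loci past the rules depended on the settings. No named gene past the 1.5-fold rule and no list median of at least 0.1 in size reversed its direction when recomputed. Reversals among the other named genes and list medians, which lay closer to no difference, were not looked for. With 15 loci higher and 4 lower by 2-fold, a pseudocount of 5 gave 7 higher and one of 0.1 gave 9 lower. A level of at least 1 FPKM gave 26 higher, one of at least 10 gave 8 higher and 2 lower, and no interval criterion gave 57 and 48. A 3-fold limit gave 3 higher. Without genes with copies 5 were higher, without overlapping loci 8 and 2, and without genes at least 4-fold higher in WT Gr1+Mac1+ cells 7 were higher. With 49 higher and 36 lower by 1.5-fold, a pseudocount of 5 gave 23 and 10, at least 1 FPKM 92 and 55, at least 10 FPKM 27 and 21, no interval criterion 100 and 90, and without the Gr1+Mac1+ genes 25 were higher. The settings without overlapping loci, without X and Y loci and without the Gr1+Mac1+ genes were chosen after seeing the data. The other 21 counts were within 1.5 times, rescaling included. Of the list medians 3 moved and 230 did not, the sex-linked list to 0.28 with a pseudocount of 5 and the targets of the Lin- depletion to -0.92 with 0.1 and -0.21 with 5. Of the named gene values 36 moved and 588 did not, all 36 with other pseudocounts. No paired analysis was possible because each group has 1 library, and no library could be left out. Depth limits low genes most: 4 of the 15 had under 50 implied fragments in both libraries.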
